A study of Mus musculus with 12 samples.

Results

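Expression of fibroblast growth factor (FGF) genes was examined in 2 mouse cell lines of the testis after knockdown of the muscarinic receptor M5. The genes were 5 grouped as ligands by name (Fgf2, Fgf7, Fgf11, Fgf18 and Fgf21) and 3 receptors (Fgfr1, Fgfr2 and Fgfr3). The other 2 were Sprouty inhibitors (Spry2 and Spry4), and all were chosen by symbol. All 10 were among the 17995 genes of the expression table. The 12 RNA-seq libraries came from C18-4 cells, a spermatogonial line, and TM4 cells, a Sertoli line. In each line 3 libraries carried a control shRNA (shNC) and 3 carried a mixture of 3 shRNAs against the M5 gene (shM5). The shRNA was delivered by lentivirus with a transfection reagent, and the cells were kept as stable populations in serum-containing medium, DMEM/F12 for C18-4 and DMEM for TM4. Each cell type was 1 line, and line and medium cannot be told apart. The labels give the source strain of every library as IRC. Nothing in the labels says that replicates were separate cultures, so p-values measure the spread between these libraries, which may be technical.

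FGF ligands bind receptor tyrosine kinases at the cell surface together with heparan sulfate, and the active receptor signals through the adaptor FRS2 to RAS and the MAP kinases ERK1 and ERK2. Sprouty proteins are induced by this pathway and hold it back, which makes them a feedback arm. In the testis, FGF2 is used to culture spermatogonial stem cells, and FGF signalling takes part in Sertoli cell development.

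Values are RPKM, read counts scaled for gene length and library size, so that levels can be compared between genes. The summed RPKM of a library lay between 506413 and 540231, and read totals are not given in the sources used here. Chrm5, which encodes M5, did not exceed 0.01 RPKM in any library and gives no check of the knockdown in RNA. The study reported lower M5 protein in both lines by immunofluorescence, which these data cannot check. Markers only partly matched the line names. In C18-4, Uchl1 of spermatogonia lay between 76.8 and 140 RPKM, but the germ cell genes Ret, Zbtb16, Ddx4, Dazl, Kit and Stra8 stayed at or below 0.05 RPKM. In TM4, Sox9 of Sertoli cells lay between 1.11 and 1.74 RPKM, while Wt1, another Sertoli gene, lay between 0.06 and 0.15 RPKM there and between 53.9 and 72.3 RPKM in C18-4. Col1a1, a collagen gene of fibroblasts, lay between 131 and 386 RPKM over both lines. Other genes of that list differed between the lines. Col1a2 lay between 0.08 and 0.19 RPKM in C18-4 and between 297 and 566 RPKM in TM4. Pdgfra lay between 0.81 and 1.85 RPKM in C18-4 and between 11.9 and 30.7 RPKM in TM4. Of 13 germ cell genes, 3 had a mean of at least 0.5 RPKM in each C18-4 group and 0 in each TM4 group. Of 15 Sertoli genes, 8 reached this mean in each TM4 group, and as many or more did in C18-4, 9 in shNC and 8 in shM5, so the count does not separate the lines. Of 8 genes of fibroblasts and peritubular myoid cells, 6 reached it in either line. The summed level of the latter was higher in shM5, at 351 to 405 RPKM in shNC and 415 to 545 RPKM in shM5 of C18-4, and 562 to 919 and 1016 to 1118 RPKM in TM4. The summed level of 4 endothelial genes was at most 1.24 RPKM, with Kdr highest at 0.70 RPKM, and that of 6 Leydig cell genes at most 1.58 RPKM, with Star highest at 1.02 RPKM. Of 4 macrophage genes Cd68 lay between 1.06 and 4.24 RPKM, and Adgre1 was at 0 in every library. The part of other cell types in the results was not tested, and fewer cells of a type cannot be told apart from less RNA per cell.

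Some libraries stood apart. In TM4, shNC replicates 1 and 2 lay together, at a root mean square of 0.189 on the log2 scale. They lay 0.640 to 0.677 from every other TM4 library. TM4 shNC replicate 3 differed from them by 0.640 and 0.642, and from the 3 shM5 libraries by 0.202 to 0.257. In C18-4, replicate 3 of both groups stood apart from replicates 1 and 2. The shM5 results of each line are given with and without the libraries numbered 3 named here, and so is the difference of Fgf21 between the lines. Leaving out TM4 shNC replicate 3 keeps shNC replicates 1 and 2, which stood apart. Lines and libraries are named here by their labels. Whether a library or a line was mislabelled was not tested, and such an error would change what the values between lines, or between shM5 and shNC in TM4, compare.

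Fgf21 was the member that moved most with these libraries. Its promoter is shown because it holds TTGCATCA, a core of the composite element bound by C/EBP and ATF factors such as ATF4, the main transcription factor of the amino acid and endoplasmic reticulum stress response. The motif was searched on both strands in the 250 bases before each start in the RefSeq promoter table (build GRCm38.p6), and it is in capitals. The build behind the deposited values is not given in the sources used here. The Fgf21 stretch is chr7:45615491-45615740 on the minus strand, written 5′ to 3′, and the motif begins 139 bases before the start.
Fgf21: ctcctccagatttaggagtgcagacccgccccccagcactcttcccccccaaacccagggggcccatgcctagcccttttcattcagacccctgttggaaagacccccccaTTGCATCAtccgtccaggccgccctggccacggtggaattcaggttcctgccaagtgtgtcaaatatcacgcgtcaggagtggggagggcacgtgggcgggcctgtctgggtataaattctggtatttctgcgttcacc
A promoter was found for 8 of the 10 members, all but Fgfr1 and Spry4, and only that of Fgf21 held the motif. It was held by 0.918% of all genes with a promoter in the table. It was present in 5 of the 15 genes of a list of ATF4 stress genes, shown as 40 bases around the motif for comparison with Fgf21. Slc7a11 held a further copy on the other strand, which lies partly outside the bases shown and is not in capitals.
Atf3 (chr1:191183420-191183459, minus strand): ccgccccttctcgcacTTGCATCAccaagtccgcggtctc
Chac1 (chr2:119351033-119351072, plus strand): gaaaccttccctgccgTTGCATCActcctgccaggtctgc
Nupr1 (chr7:126625557-126625596, minus strand): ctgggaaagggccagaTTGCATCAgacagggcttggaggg
Slc7a11 (chr3:50443637-50443676, minus strand): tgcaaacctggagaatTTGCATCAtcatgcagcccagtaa
Vldlr (chr19:27216804-27216843, plus strand): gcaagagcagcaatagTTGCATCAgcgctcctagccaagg
A match describes these letters and is not evidence of binding.

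Both lines transcribed FGF genes, but not the same ones. TM4 was dominated by Fgf7, Fgfr1 and Spry2, while C18-4 had Fgf18, Fgf21 and Fgfr3. On the log2(RPKM + 0.1) scale, limma called all 9 tested members different between the lines at an adjusted p below 0.05, 4 higher and 5 lower in C18-4, and 8 of the 9 after quantile normalisation, without Fgf11. The same test called 73.0% of the 11773 genes tested, so a call is common here and the sizes carry the comparison. At the stricter threshold of the study, an adjusted p of at most 0.001 and a log2 fold change of at least 1 in either direction, 7 members passed and 26.3% of genes did. Fgf2 had a mean below the filter of 0.5 RPKM over the 12 libraries.

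**Figure D1:**
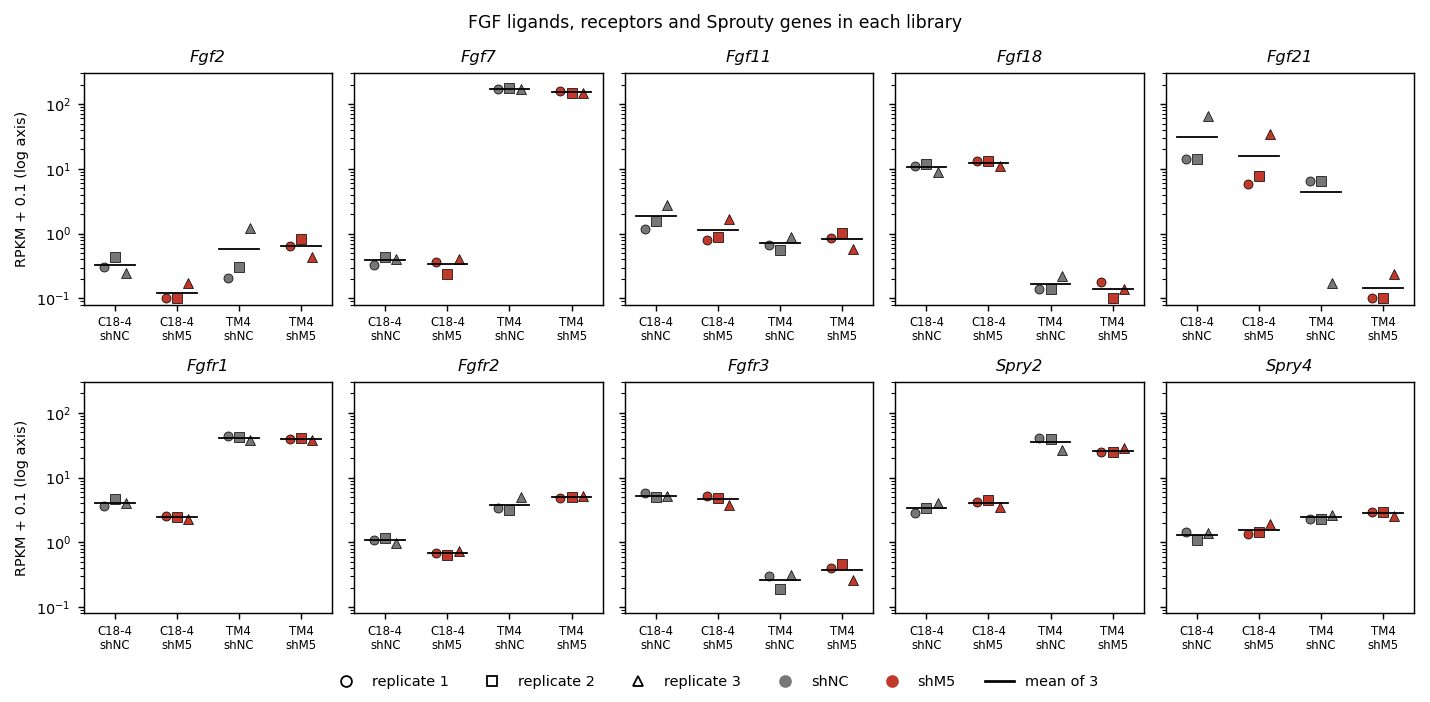
Level of each of the 10 members in every library, as RPKM + 0.1 on a log axis. Points are libraries, with the shape for the replicate number and the colour for the shRNA, and lines are means of 3. Fgf7, Fgfr1 and Spry2 sit higher in TM4, and Fgf18 and Fgfr3 sit higher in C18-4. Fgf21 is highest in replicate 3 of both C18-4 groups, and in TM4 only shNC replicates 1 and 2 are raised.

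Fgf7, also called keratinocyte growth factor, is a ligand of mesenchymal cells that acts on a splice form of FGFR2. It was between 146 and 175 RPKM in the 6 TM4 libraries (median 163) and between 0.14 and 0.33 RPKM in the 6 C18-4 libraries (median 0.285). The ranges did not overlap. The fitted log2 difference, C18-4 minus TM4, was -8.82 ± 0.12 (SE, limma adjusted p = 7.33e-14). The size depends on the pseudocount for a gene this low in C18-4, and it was -7.01 with a pseudocount of 1.

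Fgf18, a ligand of FGFR3 and of some FGFR2 forms known from skeletal growth, had the opposite pattern. C18-4 libraries lay between 8.78 and 13.2 RPKM, with a median of 11.5. TM4 libraries lay between 0 and 0.12 RPKM, with a median of 0.04. The log2 difference was 6.27 ± 0.17 (SE, limma adjusted p = 1.66e-11), and 3.56 with a pseudocount of 1. Here too no C18-4 library overlapped a TM4 library.

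Fgf21 is an endocrine ligand that needs the co-receptor beta-Klotho and is induced by ATF4 in stressed cells. Its C18-4 range was 5.78 to 65.4 RPKM, and its TM4 range was 0 to 6.47 RPKM. The lines overlapped, since the 2 highest TM4 libraries, shNC replicates 1 and 2, exceeded the lowest C18-4 library. The fitted difference on the log2 scale was 5.03 ± 0.89 (SE, limma adjusted p = 3.20e-04). It was 4.15 without TM4 shNC replicate 3, 4.27 without C18-4 replicate 3 of both groups, 3.61 in shNC libraries alone and 6.44 in shM5 libraries alone, called in each of these fits. Klb, which encodes beta-Klotho, was at most 0.07 RPKM and Kl, its paralogue, at most 0.01 RPKM in any library.

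Fgf11 belongs to the intracellular FGF homologous factors, which do not act through FGF receptors. It lay between 0.70 and 2.70 RPKM in C18-4 and between 0.46 and 0.91 RPKM in TM4, with overlap. Its log2 difference of 0.86 ± 0.26 (SE, limma adjusted p = 0.0105) became -0.21 after quantile normalisation, which moved the median difference of all genes from 0.14 to -0.02. No direction is therefore given for Fgf11.

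Fgf2, a ligand of many FGF receptor forms, was low in both lines. It lay between 0 and 0.33 RPKM in C18-4 and between 0.11 and 1.13 RPKM in TM4. The log2 difference was -1.39 and the ranges overlapped (exact two-sided permutation test, p = 0.0325, with 0.00216 the smallest p this design allows). It had the lowest mean of all members in C18-4, and only Fgf18 and Fgfr3 had a lower mean in TM4.

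**Figure D2:**
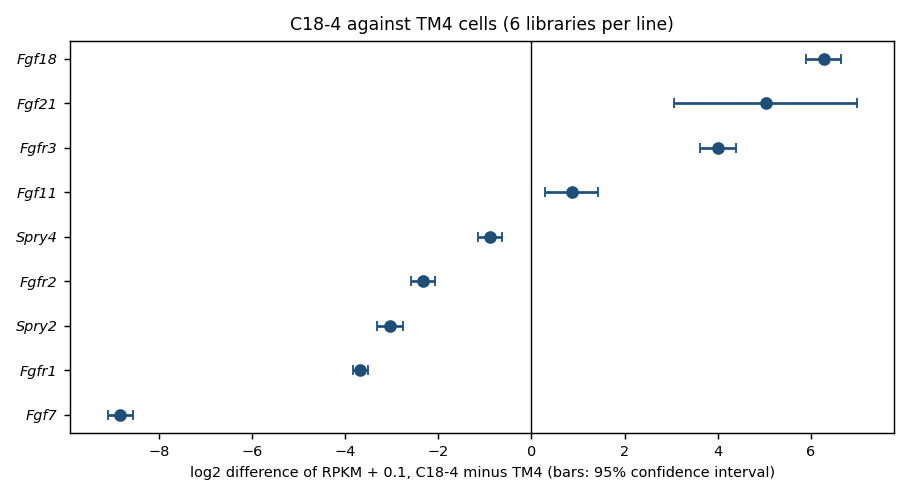
Difference between the lines for the 9 members tested, as log2(RPKM + 0.1) in C18-4 minus TM4, from 6 libraries per line. Points are limma estimates and bars 95% confidence intervals. Values run from -8.82 for Fgf7 to 6.27 for Fgf18.

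The receptors differed between the lines both in amount and in kind. Fgfr1 encodes the most widely expressed FGF receptor. Its TM4 libraries lay between 37.5 and 43.9 RPKM and its C18-4 libraries between 2.18 and 4.53 RPKM, a log2 difference of -3.67 ± 0.08 (SE, limma adjusted p = 1.33e-12). Fgfr2 encodes the receptor whose splice forms bind FGF7 or FGF18, and the gene-level table does not separate these forms. It lay between 3.10 and 5.13 RPKM in TM4 and between 0.55 and 1.08 RPKM in C18-4, a log2 difference of -2.33 ± 0.12 (SE, limma adjusted p = 4.38e-09). Fgfr3, which encodes a receptor known for restraining bone growth, ran the other way. It lay between 3.65 and 5.66 RPKM in C18-4 and between 0.09 and 0.36 RPKM in TM4, a log2 difference of 4.00 ± 0.18 (SE, limma adjusted p = 1.23e-09). None of the 3 receptors overlapped between the lines.

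In TM4 the order Fgfr1, Fgfr2, Fgfr3 held without overlap. Fgfr1 made up 87.6 to 93.1% of the summed RPKM of the 3 receptors there, and Fgfr3 at most 0.781%. In C18-4 Fgfr3 made up 46.5 to 62.7% and Fgfr1 30.1 to 43.2%. The levels of these neighbours overlapped over the 6 C18-4 libraries, although Fgfr3 was the higher of the pair in each of them. The summed receptor RPKM was 6.47 to 10.5 in C18-4 and 42.6 to 47.4 in TM4. Fgfr4, the fourth receptor gene, stayed at or below 0.03 RPKM.

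The ligands divided in the same way. Fgf7 made up 96.0 to 99.3% of the summed RPKM of the 5 ligand members in TM4. This sum includes Fgf11, which does not act through FGF receptors, and leaves out other ligands. In C18-4 Fgf21 made up 29.1 to 84.6% and Fgf18 11.4 to 66.0%, and which of these members led changed with the library. In the shM5 libraries numbered 1 and 2 Fgf18 was the higher, and in the other 4 C18-4 libraries Fgf21 was.

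**Figure D3:**
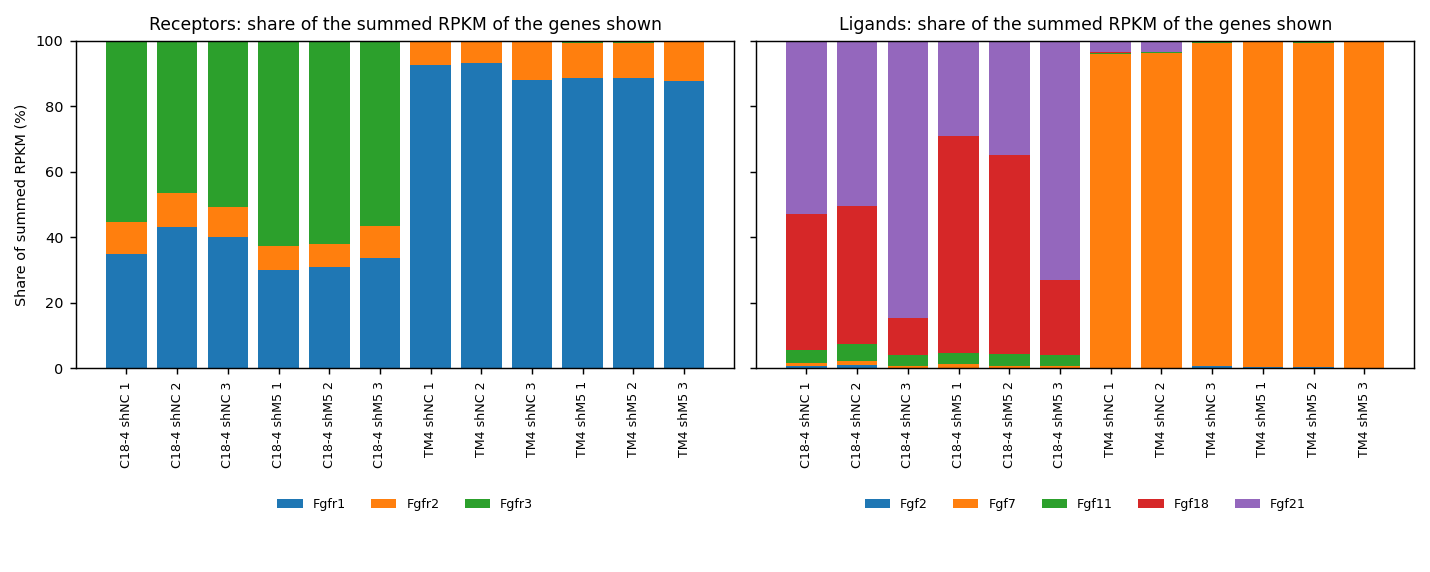
Share of the summed RPKM of the 3 receptors (left) and of the 5 genes grouped as ligands, Fgf11 included (right), in each library, in percent. Fgfr1 fills 87.6 to 93.1% of the receptor bars in TM4, while Fgfr3 is the largest receptor part in every C18-4 bar. Fgf7 fills at least 96.0% of the TM4 ligand bars.

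Spry2 and Spry4 encode feedback inhibitors of receptor tyrosine kinase signalling. Spry2 lay between 24.4 and 40.8 RPKM in TM4 and between 2.74 and 4.37 RPKM in C18-4, a log2 difference of -3.03 ± 0.13 (SE, limma adjusted p = 8.45e-10). Spry4 was closer between the lines. Its TM4 range was 2.21 to 2.87 RPKM and its C18-4 range 0.98 to 1.82 RPKM, a log2 difference of -0.89 ± 0.12 (SE, limma adjusted p = 3.48e-05). Neither gene overlapped between the lines. With Fgf7, Fgf18 and the 3 receptors, 7 of the 9 members tested did not overlap, where 52.8% of all genes tested did not.

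The rest of the pathway was read from lists of named genes. Of 14 other FGF genes in the table listed as ligands by name, 12 stayed under 0.5 RPKM in every library. The highest value among these was 0.28 RPKM. The exceptions split between the lines as Fgf18 and Fgf7 did. Fgf5, a ligand known from hair growth, lay between 9.37 and 18.7 RPKM in C18-4 and at most 0.03 RPKM in TM4. It exceeded both Fgf18 and Fgf21 in 4 of the 6 C18-4 libraries. Fgf10, which shares its FGFR2 splice form with FGF7, lay between 10.5 and 14.9 RPKM in TM4 and between 0.08 and 0.31 RPKM in C18-4.

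The list counts between the lines come from the fit that called 73.0% of all genes. Among co-receptor and heparan sulfate genes, 6 of 14 tested were higher and 7 lower in C18-4. Sulf1 and Sulf2, which encode enzymes that remove sulfate from heparan sulfate, had log2 differences of 7.86 and 7.19 and were at most 0.01 and 0.03 RPKM in TM4. Gpc4, a glypican, was lower in C18-4 by a log2 difference of -2.32. Of 19 adaptor and MAP kinase relay genes, 10 were higher and 3 lower in C18-4, with Gab1, an adaptor, at 1.77 and Frs2 at -0.76.

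Feedback inhibitors other than the members were mixed, with 5 of 11 higher and 4 lower. Spry1 had the opposite direction to Spry2 and Spry4, with a log2 difference of 2.66, while Spry3 was at -2.96. Errfi1, an inhibitor of EGF receptors that growth factors induce, was at -5.03. ERK target genes lay mostly on the TM4 side. Of 11 tested, 10 were lower and 1 higher in C18-4, with a list median of -1.83 beside 0.14 for all genes. Etv1, an ETS factor, was at -6.58, and Fosl1, an AP-1 subunit, at -4.10.

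In C18-4 cells the question was whether M5 knockdown altered these genes. At the test over all 6 libraries limma called 0 of 8 tested members, beside 0.586% of 11611 genes, and 2 members had an unadjusted p below 0.05, Fgfr1 and Fgfr2. The C18-4 libraries varied with the replicate number, mainly because number 3 stood apart in both groups. With the number as a block 3 members were called lower, Fgf11, Fgf21 and Fgfr1, beside 11.9% of genes. Without replicate 3 of both groups 5 members were called, beside 26.2% of 11549 genes, with Fgf21 (log2 difference -1.09), Fgfr2 (-0.76), Fgfr1 (-0.71) and Fgf11 (-0.67) lower and Spry2 (0.47) higher in shM5. Fgf18 was at 0.19 there and was not called. Fgfr1 was 3.56, 4.53 and 3.98 RPKM in shNC and 2.48, 2.37 and 2.18 RPKM in shM5. Every shM5 library was below every shNC library. Its log2 difference was -0.75 ± 0.14 (SE, limma adjusted p = 0.0834), and the adjusted p was 0.00928 with the block. The means were 4.02 ± 0.49 RPKM and 2.34 ± 0.15 RPKM (SD, n = 3).

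Fgfr2 also separated the groups. It was 0.99, 1.08 and 0.89 RPKM in shNC and 0.59, 0.55 and 0.64 RPKM in shM5, a log2 difference of -0.65 ± 0.20 (SE, limma adjusted p = 0.245, and 0.0749 with the block). Fgf2 was 0.21, 0.33 and 0.15 RPKM in shNC and 0, 0 and 0.07 RPKM in shM5. All 3 shM5 values were lower, and the exact two-sided permutation test gave p = 0.1, the smallest it can give with 3 against 3. Among all genes tested, which leave out Fgf2, 9.55% had every shM5 library below every shNC library. Fgfr3 overlapped between the groups, at 5.66, 4.87 and 5.04 RPKM in shNC and 5.16, 4.76 and 3.65 RPKM in shM5. Its log2 difference was -0.21 (95% confidence interval -0.57 to 0.15).

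Fgf21 in C18-4 varied with the replicate number. Its shM5 difference was called only with the number as a block or without replicate 3 of both groups. The level was 14.2, 14.2 and 65.4 RPKM in shNC and 5.78, 7.56 and 34.6 RPKM in shM5. Replicate 3 was the highest of each group. Within each number the shM5 library was lower, at 0.408, 0.531 and 0.530 times the shNC library of that number. On the log2 scale the difference was -1.03 ± 0.81 (SE, limma adjusted p = 0.708) without the block and -1.03 ± 0.08 (SE, limma adjusted p = 0.00104) with it. Fgf11 behaved alike at a lower level, with 1.06, 1.48 and 2.70 RPKM in shNC and 0.70, 0.80 and 1.56 RPKM in shM5. The ratios within a number were 0.660, 0.541 and 0.578, and the log2 difference of -0.70 had an adjusted p of 0.567 in limma, and of 0.0286 with the block.

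The remaining C18-4 members did not separate shM5 from shNC. Fgf18 was 11.2, 11.9 and 8.78 RPKM in shNC and 13.1, 13.2 and 10.9 RPKM in shM5. It was higher in shM5 within each number, at 1.17, 1.11 and 1.24 times, and its log2 difference was 0.23 (limma adjusted p = 0.595, and 0.0641 with the block). Fgf7 was 0.23, 0.33 and 0.31 RPKM in shNC and 0.26, 0.14 and 0.31 RPKM in shM5 (exact two-sided permutation test, p = 0.6).

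The Sprouty members overlapped between the groups as well. Spry2 was 2.74, 3.30 and 3.97 RPKM in shNC and 4.05, 4.37 and 3.41 RPKM in shM5. The log2 difference was 0.24 (95% confidence interval -0.16 to 0.65) over all libraries. Its call without replicate 3 of both groups had an adjusted p of 0.0208 in limma, in a fit that called 26.2% of genes. Spry4 was 1.34, 0.98 and 1.29 RPKM in shNC and 1.24, 1.33 and 1.82 RPKM in shM5, a log2 difference of 0.26 (95% confidence interval -0.25 to 0.76).

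No gene of the other FGF lists was called in C18-4 over all 6 libraries. With the block, 11.9% of 11611 genes were called, 605 higher and 781 lower, and list counts were not tested against that share. Of 11 feedback inhibitors 4 were higher and none lower, namely Dusp6 (log2 difference 0.63), Spry1 (0.61), Dusp4 (0.34) and Cbl (0.27). Dusp6 and Dusp4 encode phosphatases that switch off MAP kinases, and Cbl encodes a ubiquitin ligase that marks receptors for breakdown. Of 10 ERK target genes 2 were lower, Fosl1 (-0.86) and Egr1 (-0.29). Fgfrl1, which encodes a receptor without a kinase domain, was lower by the same test at -0.43.

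In TM4 cells limma called 0 of 8 tested members over all 6 libraries, beside 0% of 11016 genes, and 3 members had an unadjusted p below 0.05, Fgf7, Fgf21 and Spry2. Without shNC replicate 3, the library that lay closer to shM5 than to its own group, 5 of 7 tested members were called, beside 67.4% of 11026 genes. Without replicate 3 of both groups it was 6 of 7, with Spry4 added, beside 72.7% of genes. The members' calls therefore stand beside a difference over most of the transcriptome, and they rest on 2 shNC libraries that stand apart from the other 4 TM4 libraries.

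Fgf21 showed this split most sharply. It was 6.41, 6.47 and 0.07 RPKM in shNC and 0, 0 and 0.14 RPKM in shM5. Only shNC replicates 1 and 2 had a level above that of the other 4 libraries. On the log2 scale the difference was -3.85 ± 1.44 (SE, limma adjusted p = 0.192), and -5.61 ± 0.41 without shNC replicate 3 (SE, limma adjusted p = 1.67e-05). Spry2 was divided in the same way. It was 40.8, 39.5 and 26.5 RPKM in shNC and 24.4, 25.0 and 28.4 RPKM in shM5, so shNC replicate 3 fell inside the shM5 range. The log2 difference was -0.43 ± 0.18 (SE, limma adjusted p = 0.192), and -0.63 without that library, with an adjusted p of 0.000139 in limma.

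Fgfr2 took the opposite direction. It was 3.30, 3.10 and 4.84 RPKM in shNC and 4.75, 4.92 and 5.13 RPKM in shM5. The log2 difference was 0.41 ± 0.18 (SE, limma adjusted p = 0.192), and 0.61 without shNC replicate 3, with an adjusted p of 0.000537 in limma. Fgfr1, the main receptor of TM4, moved little. It was 43.9, 43.1 and 37.6 RPKM in shNC and 39.4, 40.8 and 37.5 RPKM in shM5, a log2 difference of -0.08 (95% confidence interval -0.29 to 0.13). Without shNC replicate 3 it was -0.15, with an adjusted p of 0.0298 in limma. Fgfr3 was 0.20, 0.09 and 0.21 RPKM in shNC and 0.30, 0.36 and 0.16 RPKM in shM5 (exact two-sided permutation test, p = 0.3).

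Fgf7 was the TM4 member whose groups did not overlap. It was 171, 175 and 168 RPKM in shNC and 159, 151 and 146 RPKM in shM5, with shNC replicate 3 on the side of its own group. Among all genes tested in TM4, 11.1% had every shM5 library below every shNC library. The means were 171.6 ± 3.35 RPKM and 151.9 ± 6.16 RPKM (SD, n = 3). Its log2 difference was -0.18 ± 0.06 (SE, limma adjusted p = 0.192), and -0.19 without shNC replicate 3, with an adjusted p of 0.00624 in limma.

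Spry4 was 2.22, 2.21 and 2.59 RPKM in shNC and 2.87, 2.85 and 2.49 RPKM in shM5. Its log2 difference of 0.22 had an adjusted p of 0.269 in limma, and 0.29 without shNC replicate 3 had an adjusted p of 0.0558. Fgf2 and Fgf11 overlapped between the groups. Fgf2 was 0.11, 0.21 and 1.13 RPKM in shNC, where replicate 3 was the highest of all 12 libraries, and 0.55, 0.73 and 0.33 RPKM in shM5. Fgf11 was 0.58, 0.46 and 0.79 RPKM in shNC and 0.76, 0.91 and 0.48 RPKM in shM5. Fgf18 was at most 0.12 RPKM in these libraries, too low to compare.

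**Figure D4:**
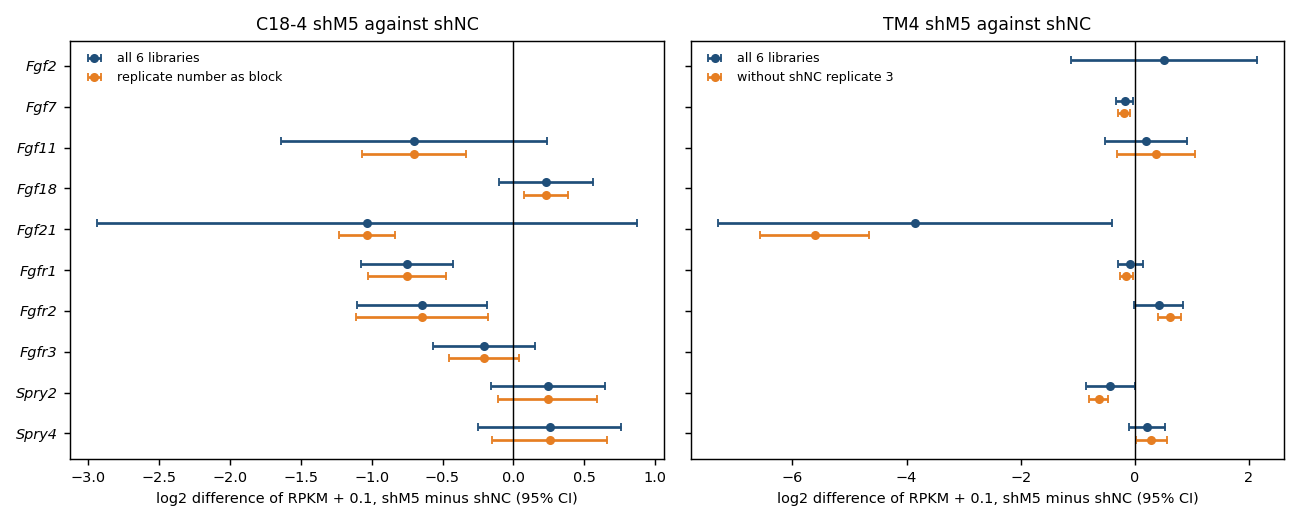
Difference between shM5 and shNC for each member tested, as log2(RPKM + 0.1), in C18-4 (left) and TM4 (right). Points are limma estimates and bars 95% confidence intervals, over all 6 libraries and, in orange, with the replicate number as a block (C18-4) or without shNC replicate 3 (TM4). The interval of Fgf21 in C18-4 narrows with the block around the same estimate of -1.03.

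The lists around the members gave 0 called genes in TM4 over all 6 libraries. The counts without shNC replicate 3 come from the fit that called 67.4% of all genes, and a share near that is no result about a list. There, 5 of 11 feedback inhibitors were higher and 3 lower in shM5. Dusp6 was higher (0.85), as it was with the block in C18-4, while Dusp4 (-1.74) and Spry1 (-1.04) were lower. Of 11 ERK target genes 6 were higher and 2 lower, with the cyclin gene Ccnd1 at 0.84 and Myc at -1.76. Of 19 relay genes 7 were higher and 9 lower, with the adaptor Shc1 at 0.83 and Sos2, an exchange factor for RAS, at -0.89.

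The difference between the shM5 effects of both lines was tested directly. limma called 0 of 9 tested members, beside 0.102% of 11773 genes, and 3 members had an unadjusted p below 0.05, Fgfr1, Fgfr2 and Spry2. For Fgfr2 the difference of log2 effects, C18-4 minus TM4, was -1.06 ± 0.23 (SE, limma adjusted p = 0.126). For Fgfr1 it was -0.67 ± 0.15 (SE, limma adjusted p = 0.129). For Spry2 it was 0.68 ± 0.26 (SE, limma adjusted p = 0.210). Without TM4 shNC replicate 3, 4 members were called, Fgfr1, Fgfr2, Spry2 and Fgf21, beside 38.0% of 11793 genes. Without TM4 replicate 3 of both groups it was 5, with Fgfr3 added, beside 34.4% of genes.

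Fgf21 was read beside 15 genes of the ATF4 stress response. All 15 were higher in both TM4 shNC replicates 1 and 2 than in the other 4 TM4 libraries. All 15 were also higher in both C18-4 replicates numbered 3 than in the other 4 C18-4 libraries. The share of all genes placed so was not counted, so neither count is a result about the list. In TM4 a difference was common, since the fit without shNC replicate 3 called 67.4% of 11026 genes. Of 19 relay genes, 9 lay above and 7 below the other libraries in the TM4 split, and 9 and 2 in the C18-4 split. The stress list was chosen with earlier results of these data known. Their summed level in TM4 ran from 1484 to 3273 RPKM in shNC and from 1410 to 1425 RPKM in shM5. In C18-4 it ran from 1359 to 2161 RPKM in shNC and from 1288 to 2018 RPKM in shM5. The part of this response in the Fgf21 values was not tested.

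Trib3, a pseudokinase induced by ATF4, was 80.5, 78.1 and 11.7 RPKM in TM4 shNC and 8.60, 9.01 and 9.83 RPKM in TM4 shM5. In C18-4 it was 32.6, 36.2 and 95.1 RPKM in shNC and 31.8, 30.3 and 107 RPKM in shM5. Like Fgf21 it was highest in replicate 3 of each C18-4 group. Its shM5 to shNC ratios within a number were 0.978, 0.836 and 1.12 in C18-4. Chac1, which encodes an enzyme that breaks down glutathione, had ratios of 1.02, 0.959 and 0.896, and Ddit3, the stress factor CHOP, had 1.03, 0.995 and 1.28. Over all 15 stress genes these C18-4 ratios ran from 0.585 to 1.49, with 8 genes below 1 in all 3 pairs, Atf4 and Asns among them, and 3 genes above 1 in all 3. The Fgf21 ratios, 0.408 to 0.531, lay below this range. With the block, which called 11.9% of all genes, 2 of the 15 stress genes were higher and 3 lower in C18-4 shM5. Atf3 was at 0.48 and Vldlr at -0.53.

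**Figure D5:**
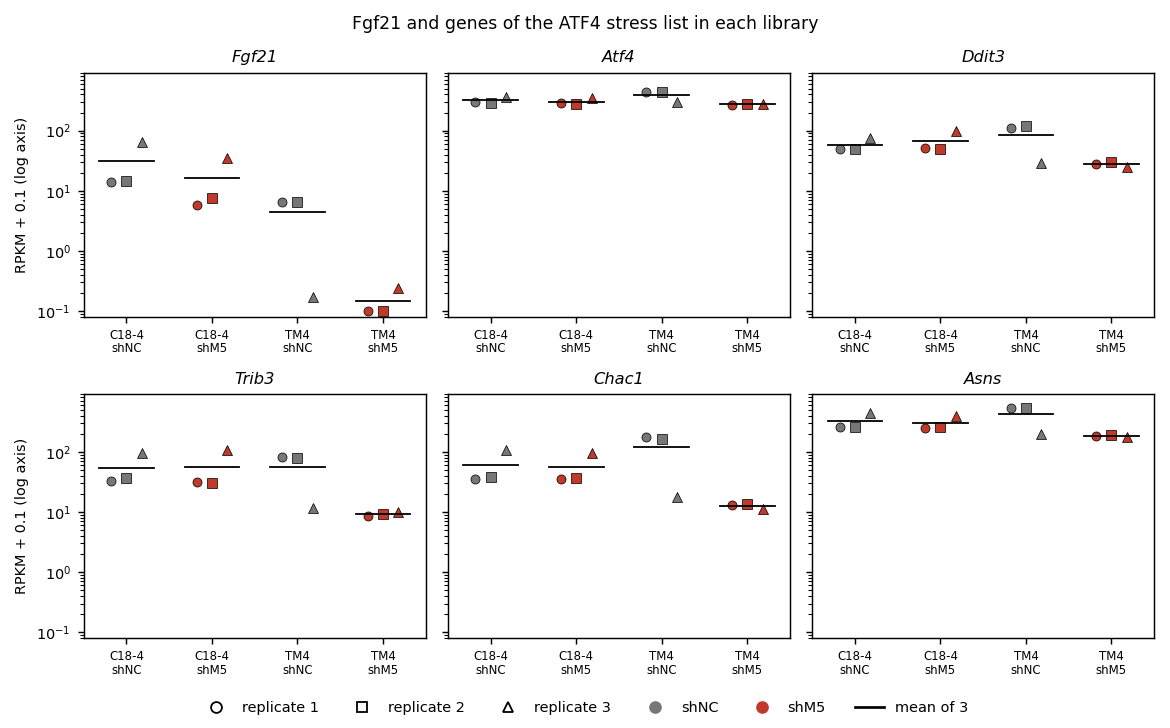
Level of Fgf21 and of 5 genes of the ATF4 stress list in every library, as RPKM + 0.1 on a log axis, with symbols for the replicate number, colours for the shRNA and lines for means of 3. TM4 shNC replicates 1 and 2 and the C18-4 libraries numbered 3 are high for all of them, and only Fgf21 among the genes shown is near 0 in the other TM4 libraries.

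Similarity of pattern was measured for the member with the highest mean in each role, and for Fgf21, as Pearson's r over the 12 libraries after centring each line. The comparison covered 11157 genes, the libraries share their normalisation, and the values are a description. Nearest to Fgf21 were Tnfaip2 (r = 0.992), Yars (r = 0.992) and Phgdh (r = 0.992). Yars encodes a tyrosyl-tRNA synthetase and Phgdh the first enzyme of serine synthesis. Nearest to Fgf7 were Ramp2 (r = 0.947), Nmnat2 (r = 0.871) and Ptp4a3 (r = 0.850). Nearest to Fgfr1 were Fam107a (r = 0.942), Cadm1 (r = 0.941) and Tgfbr3 (r = 0.930), and nearest to Spry2 were Kirrel (r = 0.960), Cltc (r = 0.958) and Exoc6b (r = 0.952).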

How the data were processed

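The authors enriched mRNA of 12 total RNA samples on oligo(dT) beads, sequenced it, mapped reads to reference genes with SOAPaligner and deposited RPKM per gene. The genome build is not given in the sources used here. The deposited RPKM values were used as they stood. Groups came from the labels. Tests used limma 3.58.1 in R 4.3.3 on log2(RPKM + 0.1) with a mean-variance trend, after dropping genes whose mean fell below 0.5 RPKM, and Benjamini-Hochberg adjustment over all of them, with calls at an adjusted p below 0.05. Fold changes on this scale understate changes of low genes. Members under the filter were tested by exact permutation. Both lines entered 1 fit for the comparison of lines and for the difference of effects. The fit was tested on simulated data with the same spread for every gene and no library standing apart, unlike the libraries here. Pairing of replicate numbers was checked from deviations from group means. Same-numbered C18-4 libraries correlated at 0.439, 0.409 and 0.631, so fits with the number as a block are given beside the main fit there. Same-numbered TM4 libraries correlated at 0.073, 0.049 and 0.127, and the block is given there only as a count under alternatives. In C18-4, number 1 of one group and 2 of the other correlated nearly as highly, at 0.341 and 0.345. Number 3 correlated with numbers 1 and 2 at -0.514 to -0.467. The C18-4 correlations thus mainly set number 3 apart, and they are weak evidence that numbers 1 and 2 are separate pairs. Genes other than members were named when they passed the call, at most 5 per list and comparison by size, beside stress genes set next to Fgf21. The figure genes of that list, the within-number ratios, the list counts and ranges for it by library, the Fgf5 order and the fits without replicate 3 of both groups were chosen after seeing the data. Members and lists were chosen with earlier results of these data known. Alternatives covered pseudocount, filter, scaling, trend, threshold, block and left-out libraries. Figures were drawn with matplotlib.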

Additional observations from a re-analysis of the deposited data

How the results depend on the processing

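Over all 6 libraries limma called 0 members in either line. With the replicate block this became 3 in C18-4 and stayed at 0 in TM4, and without replicate 3 of both groups, settings added after seeing the data, 5 members were called in C18-4 (26.2% of all genes) and 6 in TM4 (72.7%). Leaving out 1 library at a time gave 0 to 5 members in TM4, the 5 without shNC replicate 3, and 0 to 4 for the difference of effects, the 4 without that same library. The difference of effects gave 5 without TM4 replicate 3 of both groups (34.4% of all genes).

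For the difference of effects, Fgf7 turned from -0.06 to 0.11 with a pseudocount of 1, 0.10 after quantile normalisation, and 0.01 and 0.16 without C18-4 shNC or shM5 replicate 2. Spry4 turned from 0.04 to -0.00488 with a pseudocount of 1, -0.09 without C18-4 shNC replicate 2, -0.12 without C18-4 shM5 replicate 3, -0.03 without TM4 shNC replicate 3 or TM4 shM5 replicate 3, and -0.0676 and -0.10 without replicate 3 of both groups in C18-4 and in TM4. Fgf2 in TM4 turned from 0.51 to -0.00713 without shNC replicate 1, and Fgf11 between the lines from 0.86 to -0.21 after quantile normalisation. With 1 library left out at a time these values ran from -0.22 to 0.16 for Fgf7, from -0.12 to 0.14 for Spry4 and from -0.00713 to 0.77 for Fgf2. The causes were not tested. Quantile normalisation also moved the split of genes called between the lines from 5163 higher and 3433 lower to 4209 and 4439. Counts of genes called over the whole table ran from 0 to 3029 in C18-4 (68 over all libraries, 1386 with the block), from 0 to 8016 in TM4, from 0 to 4477 for the difference of effects (12, and 2 with the block) and from 3101 to 10417 between the lines. The replicate block changed no other count of members, 0 for the difference of effects and 9 between the lines. Of 687 single-gene values under alternatives, 643 kept direction and side of the threshold, 28 passed it newly and 3 lost it. Read totals are not given, so the depth behind low members such as Fgf2 and Fgf18 in TM4 is unknown.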
